A study of Mus musculus with 9 samples.

Results

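The genes described here are 9 transcription factors that lay out the areas of the developing cerebral cortex: Pax6, Emx1, Emx2, Lhx2, Nr2f1, Nr2f2, Sp8, Dmrta2 and Dmrt3. They were taken as the rows of the deposited count table whose gene identifiers carry these symbols, and 9 of its 53379 gene identifiers did. All 9 had enough reads to be tested, among 17760 genes. RNA was measured in green fluorescent (GFP+) cells sorted from the cortex of C57BL/6 mouse embryos. The cells had received a short hairpin RNA (shRNA) by in utero electroporation, in which DNA is injected into the ventricle of the brain and driven into the cells that line it. Electroporation was done on the embryonic day written E13.5 and the cells were collected 48 hours later, at E15.5, so all groups share the procedure, the strain, the age and the GFP gate. The circSlc45a4 knockdown used a mix of 3 shRNAs directed at the circular RNA made from Slc45a4, the Slc45a4 mRNA knockdown a mix of 2 shRNAs directed at the linear messenger of that gene, and the control 1 scramble shRNA. Each group had 3 libraries of polyA-selected RNA, which the submitters call biological replicates without naming litters or embryos or saying how many embryos were pooled. Electroporation reaches a part of the cortex only, and the labels do not say which part, so the position of the sorted cells along the axes of the cortex is not known.

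Cortical areas are laid out before neurons settle, by transcription factors that are graded across the sheet of dividing cells at the ventricle. Signals from the edges of the sheet (fibroblast growth factors at the front, Wnt and bone morphogenetic proteins at the medial hem) set these gradients. Pax6 and Sp8 are highest towards the front, Emx2 and Nr2f1 towards the back, and Nr2f2 in the caudal and lateral cortex and in the ventral forebrain. Emx1 and Lhx2 mark the dorsal cortex as a whole, and Lhx2 keeps cells cortical rather than hem. The Dmrt factors Dmrta2 and Dmrt3 are highest medially. Nr2f1 (COUP-TFI) and Nr2f2 (COUP-TFII) are closely related orphan nuclear receptors.

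Most members are single genes on different chromosomes (GENCODE M21 annotation, mouse build GRCm38). Pax6 lies at chr2:105668900-105697364 and Lhx2 at chr2:38339281-38369733, both on the plus strand. Emx2 lies at chr19:59458372-59465357 and Dmrt3 at chr19:25610301-25623921, also on the plus strand. Emx1 is at chr6:85187438-85204462, Sp8 at chr12:118846329-118852576 and Dmrta2 at chr4:109978053-109983687, all on the plus strand. Nr2f1 is at chr13:78188973-78199757 and Nr2f2 at chr7:70351944-70366735, both on the minus strand.

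The sequences just before the start of Pax6, Lhx2 and Sp8 are printed because Pax6 was called higher in the circSlc45a4 knockdown, whereas Lhx2 and Sp8 were both called lower in the Slc45a4 mRNA knockdown. Each is 250 bases long, on the plus strand, 5′ to 3′, from the RefSeq promoter table of build GRCm38.p6, which matched 9 of 9 members. Capitals mark GGGCGG or its complement CCGCCC, the GC box bound by Sp factors. No AGGTCA (nor its complement TGACCT, the nuclear receptor element) and no TAATTA (the homeodomain core) occurs in these 3 windows.
Pax6, chr2:105668646-105668895: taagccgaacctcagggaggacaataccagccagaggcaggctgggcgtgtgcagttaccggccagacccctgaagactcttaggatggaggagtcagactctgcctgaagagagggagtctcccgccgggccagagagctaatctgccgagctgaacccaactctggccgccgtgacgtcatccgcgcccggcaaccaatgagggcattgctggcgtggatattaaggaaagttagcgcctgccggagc
Lhx2, chr2:38339031-38339280: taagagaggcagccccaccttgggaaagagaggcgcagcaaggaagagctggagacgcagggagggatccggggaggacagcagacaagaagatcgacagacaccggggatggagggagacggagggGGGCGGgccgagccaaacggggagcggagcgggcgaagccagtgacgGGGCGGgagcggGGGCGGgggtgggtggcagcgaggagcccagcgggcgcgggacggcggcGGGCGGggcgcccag
Sp8, chr12:118846079-118846328: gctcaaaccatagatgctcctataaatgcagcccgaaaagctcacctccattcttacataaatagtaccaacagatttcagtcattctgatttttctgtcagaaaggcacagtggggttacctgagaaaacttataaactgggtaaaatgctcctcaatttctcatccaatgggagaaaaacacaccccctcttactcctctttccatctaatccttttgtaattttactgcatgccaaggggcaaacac
The Lhx2 window holds 4 GC boxes, and neither of the other two holds any. The table lists other starts for these genes: of 3 for Sp8, the window of the second holds 1 GC box and 1 TGACCT and that of the third 1 TAATTA, while the second windows of Pax6 and Lhx2 hold none of these motifs. Over all 32851 promoter windows of the same length, 32.7% held a GC box, 14.0% held AGGTCA on either strand and 4.84% held TAATTA. The windows differ in base composition: 60.8% G or C for Pax6, 72.8% for Lhx2 and 40.8% for Sp8, beside a median of 52.4% over all windows. The sequence before the start used for Emx1 holds 4 GC boxes, that of Emx2 holds 2 and that of Nr2f1 holds 1. These are matches of letters, not measured binding.

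Total counts ranged from 21073174 to 45469298 per library. Slc45a4 itself was measured at 33.0 ± 1.41 CPM (counts scaled by library size; SD, n = 3) in the scramble group, 25.1 ± 0.380 in the circSlc45a4 knockdown and 16.4 ± 2.77 in the Slc45a4 mRNA knockdown. Its log2 fold change against scramble was -0.39 ± 0.12 (SE; adjusted p = 0.0245) in the circSlc45a4 knockdown and -1.01 ± 0.12 (adjusted p = 1.08e-04) in the Slc45a4 mRNA knockdown. The smaller difference was not called with any 1 of the circSlc45a4 knockdown libraries, scramble replicate 2 or scramble replicate 3 left out (adjusted p between 0.0659 and 0.0866), with the Xist covariate (-0.23, adjusted p = 0.57) or against a 1.2-fold minimum (adjusted p = 0.206). These are counts per gene in polyA-selected RNA, and the circular RNA was not measured on its own. The cortical projection neuron genes Neurod6 (1160 ± 114 CPM in the scramble group) and Tbr1 (308 ± 53.9 CPM) are those of the labelled tissue. Xist, which coats the inactive X in female cells, separated the libraries: it was between 0.0617 and 0.239 CPM in the scramble group, whereas the circSlc45a4 knockdown ranged from 264 to 635 CPM. Replicates 1, 2 and 3 of the Slc45a4 mRNA knockdown had 1550, 637 and 0.194 CPM. The part of this difference in the results was not tested. Every comparison was also fitted with the Xist level as a covariate. Between scramble and the circSlc45a4 knockdown, however, Xist level and group coincide, so their parts cannot be told apart. The fitted slope of the covariate there rests mostly on the spread among the Slc45a4 mRNA knockdown libraries. In sorted bulk RNA, fewer cells of a type and less RNA per cell cannot be told apart.

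Per exon length, the factors fell into a high, a middle and a low tier. In scramble cells Lhx2 was highest at 87.5 RPKM (CPM per kilobase of all annotated exons together), followed by Emx1 at 45.5 and Nr2f1 at 39.2. Dmrta2 (14.3), Emx2 (10.9) and Pax6 (8.56) formed the middle tier. Sp8 (1.66), Dmrt3 (0.657) and Nr2f2 (0.597) were lowest, and Dmrt3 and Nr2f2 were the only neighbours in this order whose libraries overlapped. In the circSlc45a4 knockdown Pax6 (15.0 RPKM) moved up beside Emx2 (15.8) and Dmrta2 (14.4), and these 3 overlapped. Emx1 (58.2) overlapped Nr2f1 (46.6), and Sp8 (1.57) overlapped Dmrt3 (1.17), while Nr2f2 stood alone at the bottom at 0.147. In the Slc45a4 mRNA knockdown Lhx2 stayed first at 64.5 RPKM, and Emx1 (36.8) overlapped Nr2f1 (36.6). Dmrta2 (14.4) overlapped Emx2 (11.8), which overlapped Pax6 (9.82), and Dmrt3 (1.09) overlapped Sp8 (0.972). Nr2f2 was again last, at 0.270.

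**Figure D1:**
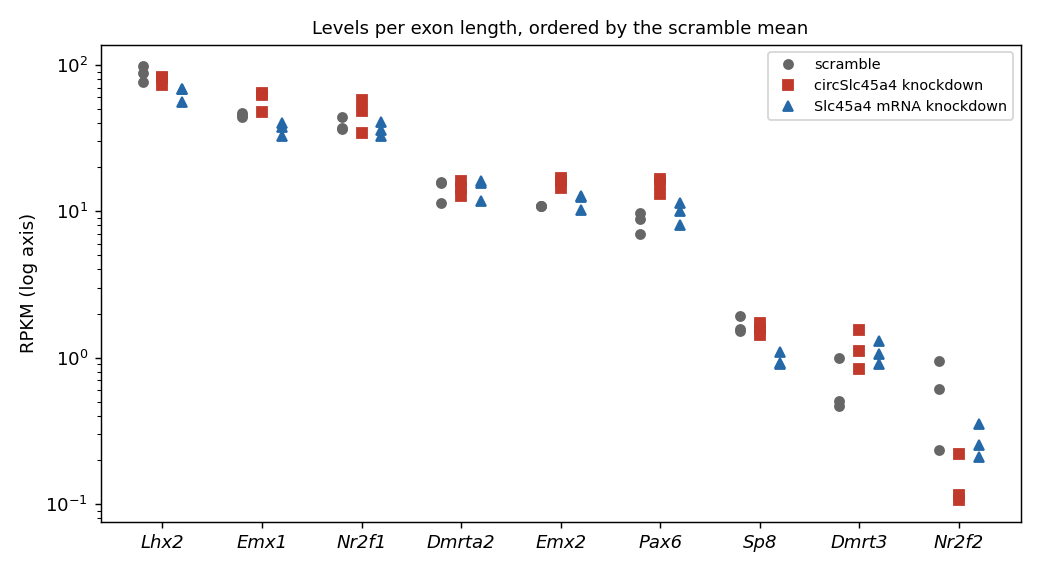
RPKM (log axis) of the 9 factors in each of the 9 libraries, ordered by the scramble mean, 1 symbol shape and colour per group. Lhx2 is highest in every group, and Nr2f2 sits at 0.147 in the circSlc45a4 knockdown, below Dmrt3.

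In the circSlc45a4 knockdown Pax6, Emx1 and Emx2 were higher than in scramble cells and Nr2f2 was lower. These 4 of the 9 factors passed an adjusted p under 0.05 (44.4%), beside 27.1% of all 17760 genes tested. 3 were higher (beside 14.1% of all genes) and 1 was lower (beside 13.0%). With upper-quartile scaling, 2094 genes were higher and 2854 lower in place of 2509 and 2305, and 2 factors were higher and 1 lower. For the same 4 factors the 3 libraries of the knockdown did not overlap the 3 scramble libraries, beside 43.9% of all genes. In the Slc45a4 mRNA knockdown Lhx2 and Sp8 were lower than in scramble cells and no factor was called higher. This is 2 of 9 (22.2%), beside 18.0% of all genes (8.92% higher and 9.09% lower). Libraries did not overlap for 3 of 9, Lhx2, Sp8 and Emx1, beside 36.1% of all genes. The 2 comparisons use the same scramble libraries. Set directly against each other, the circSlc45a4 knockdown had 4 of 9 factors higher than the Slc45a4 mRNA knockdown (Pax6, Emx1, Emx2 and Sp8) and none lower, beside 26.1% of all genes, 13.8% higher and 12.3% lower. There 5 of 9 did not overlap, the same 4 and Lhx2, beside 40.1% of all genes. With upper-quartile scaling that split over all genes became 2022 higher against 2785 lower, from 2445 higher against 2187 lower, while the 4 factors were still called higher. The median log2 fold change over the 9 was 0.25, -0.10 and 0.35 in the 3 comparisons, beside -0.0096, 0.013 and -0.019 over all genes.

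**Figure D2:**
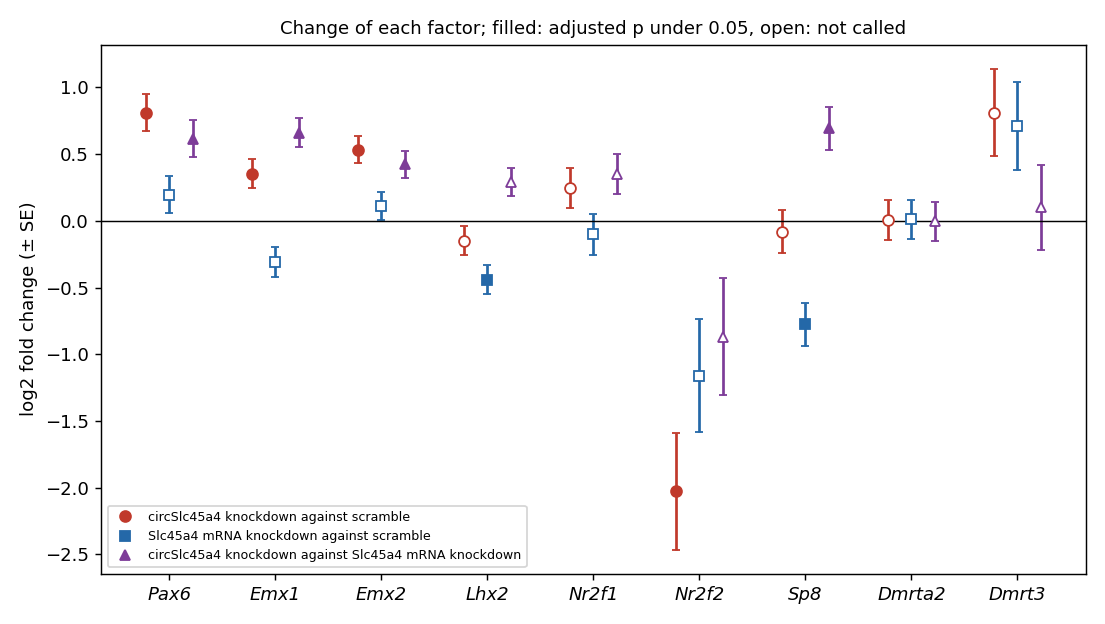
Log2 fold change with its standard error for each factor in 3 comparisons, filled where the adjusted p of edgeR's quasi-likelihood test is under 0.05. Filled circles lie above 0 for Pax6, Emx1 and Emx2 and below 0 for Nr2f2, and filled squares lie below 0 for Lhx2 and Sp8.

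Pax6, a paired-box and homeodomain protein of radial glia, was measured at 81.7, 104 and 114 CPM in the scramble libraries and at 193, 181 and 153 CPM in the circSlc45a4 knockdown. Every circSlc45a4 knockdown library lay above every scramble library. The log2 fold change was 0.81 ± 0.14 (SE), a 1.75-fold difference, with an adjusted p of 9.06e-04 by edgeR's quasi-likelihood test. The Slc45a4 mRNA knockdown libraries had 133, 94.6 and 117 CPM, overlapping scramble (log2 fold change 0.20 ± 0.14, adjusted p = 0.366). The direct difference between the knockdowns was 0.61 ± 0.14 (adjusted p = 0.00594), higher in the circSlc45a4 knockdown in 3 of 3 libraries. With Xist as a covariate the difference between the circSlc45a4 knockdown and scramble was 0.83 and no longer called (adjusted p = 0.0609).

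Emx2, the homeobox factor that favours caudal and medial areas, had an even level in scramble cells: 32.8, 32.8 and 32.7 CPM. It was at 50.8, 48.1 and 43.5 CPM in the circSlc45a4 knockdown, above all scramble libraries. The log2 fold change was 0.53 ± 0.10 (adjusted p = 0.00184). No alternative ended this call, with values between 0.48 and 0.65 and a largest adjusted p of 0.0443. Emx2 in the Slc45a4 mRNA knockdown was at 37.6, 30.6 and 38.0 CPM, on either side of scramble (0.11 ± 0.10, adjusted p = 0.497). The circSlc45a4 knockdown was higher than the Slc45a4 mRNA knockdown by 0.42 ± 0.10 (adjusted p = 0.00824). That call was lost in a test for changes above 1.2-fold (adjusted p = 0.12).

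Emx1, the dorsal cortical homeobox gene related to Emx2, lay at a different level in each group, with no overlap between any pair of groups. Libraries of the Slc45a4 mRNA knockdown were lowest at 70.9, 87.4 and 82.9 CPM, scramble lay between at 99.0, 103 and 96.6, and the circSlc45a4 knockdown was highest at 140.1, 137 and 105. The direct difference between the knockdowns was 0.66 ± 0.11 (adjusted p = 8.59e-04). Against scramble the circSlc45a4 knockdown was higher by 0.35 ± 0.11 (adjusted p = 0.0300). The Slc45a4 mRNA knockdown was at -0.31 ± 0.11, which did not pass (adjusted p = 0.0727). The call against scramble in the circSlc45a4 knockdown was lost without its replicate 1 (0.28, adjusted p = 0.135), without its replicate 2 (0.30, adjusted p = 0.12), without scramble replicate 1, 2 or 3 (adjusted p = 0.0722, 0.0674 and 0.0914), and with upper-quartile scaling, the Xist covariate or the 1.2-fold minimum (adjusted p = 0.0559, 0.21 and 0.286). The value in the Slc45a4 mRNA knockdown passed with no filter (adjusted p = 0.0137), with DESeq2 (0.0433), with only the 6 libraries compared (0.0415) and without circSlc45a4 knockdown replicate 3 (0.0301).

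Lhx2, the LIM-homeobox factor that keeps cortical identity, was the most abundant of the 9. Scramble libraries had 430.0, 385 and 338 CPM, circSlc45a4 knockdown libraries 357, 364 and 318, and Slc45a4 mRNA knockdown libraries 245, 302 and 303. All 3 Slc45a4 mRNA knockdown libraries lay below all scramble libraries, while the circSlc45a4 knockdown overlapped scramble. The log2 fold change was -0.44 ± 0.11 (adjusted p = 0.0122) in the Slc45a4 mRNA knockdown and -0.15 ± 0.11 (adjusted p = 0.333) in the circSlc45a4 knockdown. Between the knockdowns the difference of 0.29 ± 0.11 did not pass (adjusted p = 0.0599), although it did with no filter (0.0124), with DESeq2 (0.0329) and without circSlc45a4 knockdown replicate 3 (0.0493). The call in the Slc45a4 mRNA knockdown was lost without scramble replicate 1 (-0.35, adjusted p = 0.0585) or 2 (-0.44, adjusted p = 0.0504), with the Xist covariate (-0.34, adjusted p = 0.298) and against the 1.2-fold minimum (adjusted p = 0.153).

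Sp8, the zinc-finger factor highest in the frontal cortex, was scarce and was lower in the Slc45a4 mRNA knockdown. Scramble libraries had 7.12, 6.90 and 8.71 CPM, circSlc45a4 knockdown libraries 7.89, 7.11 and 6.53, and Slc45a4 mRNA knockdown libraries 4.10, 4.21 and 4.99. The Slc45a4 mRNA knockdown libraries lay below all 6 others, and the circSlc45a4 knockdown and scramble overlapped. Against scramble the log2 fold change was -0.78 ± 0.16 (adjusted p = 0.00536) in the Slc45a4 mRNA knockdown and -0.08 ± 0.16 (adjusted p = 0.746) in the circSlc45a4 knockdown. The knockdowns differed by 0.69 ± 0.16 (adjusted p = 0.00675). Only the Xist covariate ended the call in the Slc45a4 mRNA knockdown (-0.60, adjusted p = 0.222). Replicate 3 of that group, whose Xist level of 0.194 CPM lay among the scramble libraries, had 4.99 CPM of Sp8, below the lowest scramble library at 6.90 CPM. The same library had 303 CPM of Lhx2, also below the lowest scramble library at 338 CPM. These are values of a single library, and the part of the Xist difference in the Sp8 and Lhx2 values was not tested.

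**Figure D3:**
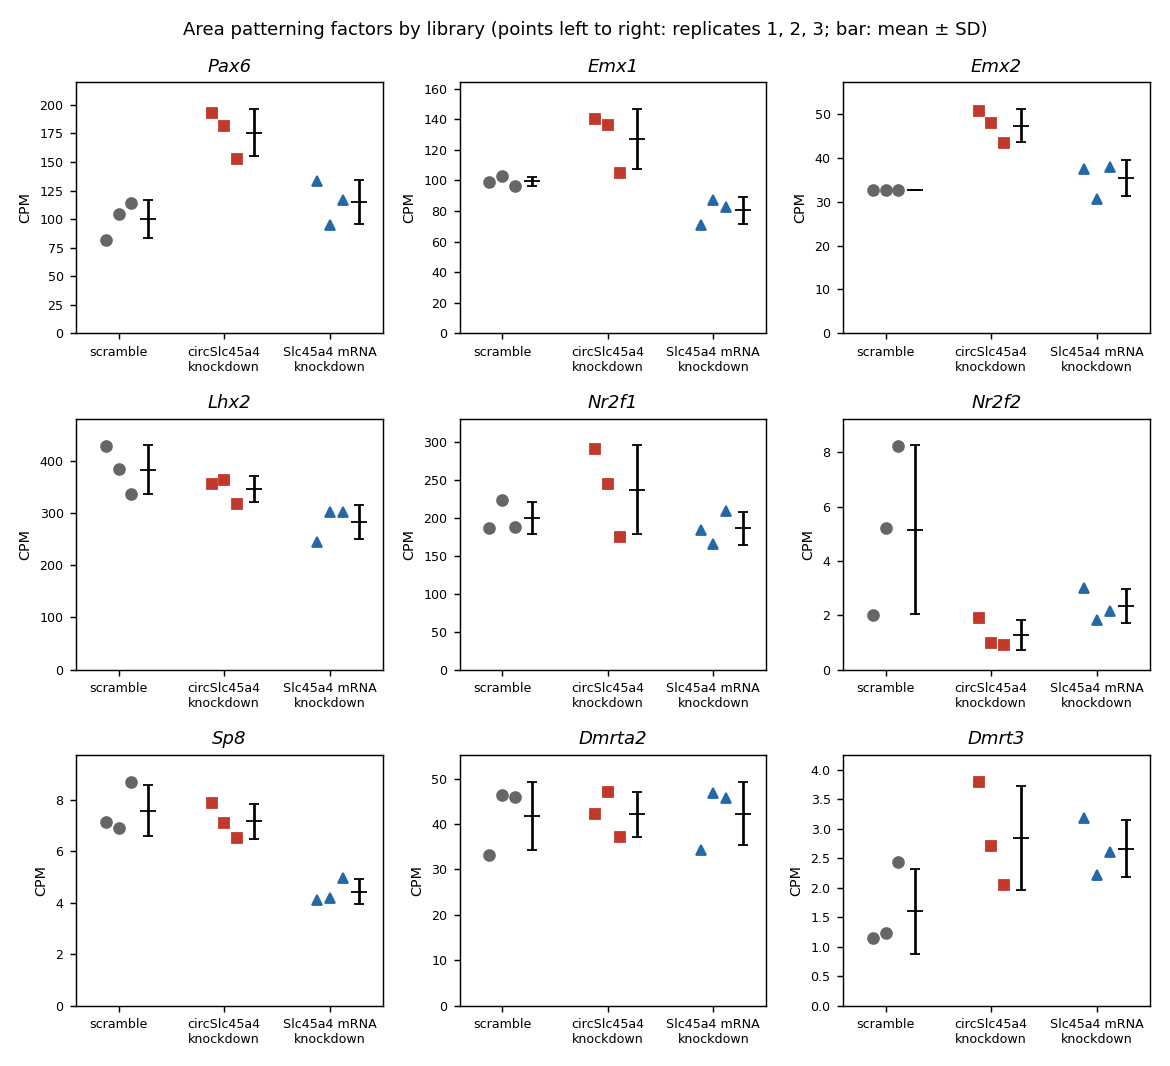
CPM of each factor in each library, 1 panel per gene with its own axis from 0; points are replicates 1 to 3 of a group from left to right, and the bar is the group mean with its SD. Pax6 and Emx2 libraries of the circSlc45a4 knockdown sit above every scramble library, Sp8 libraries of the Slc45a4 mRNA knockdown sit below every scramble library, and the Nr2f2 scramble libraries are spread from 2.01 to 8.21 CPM.

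The 2 COUP-TF receptors lay at very different levels, and only Nr2f2 was called against scramble. Nr2f1 was at 187, 224 and 189 CPM in scramble cells. Its circSlc45a4 knockdown libraries had 291, 245 and 175 CPM, and those of the Slc45a4 mRNA knockdown 184, 166 and 209. All 3 groups overlapped, and the circSlc45a4 knockdown spanned both the highest level and a level below every scramble library. The log2 fold change against scramble was 0.25 ± 0.15 (adjusted p = 0.252) in the circSlc45a4 knockdown and -0.10 ± 0.15 (adjusted p = 0.689) in the Slc45a4 mRNA knockdown. The knockdowns differed by 0.35 ± 0.15 (adjusted p = 0.108). Without circSlc45a4 knockdown replicate 3, the lowest library, the first value was 0.43 (adjusted p = 0.0221) and the last 0.53 (adjusted p = 0.00772), and with no filter they passed too (adjusted p = 0.0492 and 0.00191).

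Nr2f2 was scarce and uneven. Scramble libraries held 42, 161 and 266 reads, or 2.01, 5.22 and 8.21 CPM. The circSlc45a4 knockdown held 85, 36 and 41 reads, or 1.90, 0.984 and 0.916 CPM, and the Slc45a4 mRNA knockdown 108, 67 and 78 reads, or 3.01, 1.81 and 2.16 CPM. All circSlc45a4 knockdown libraries lay below all scramble libraries, though scramble replicate 1 was only just above the highest of them. The log2 fold change was -2.03 ± 0.44, a 4.08-fold lower level (adjusted p = 0.00388). It ran from -2.45 to -1.52 when each library was left out in turn and passed every time, and it lost its call only with the Xist covariate (-2.18, adjusted p = 0.124). The Slc45a4 mRNA knockdown overlapped scramble and gave -1.16 ± 0.42 (adjusted p = 0.0732). That value rested on the scramble libraries: without replicate 1 it was -1.53 (adjusted p = 0.00963) and without replicate 3 it was -0.65 (adjusted p = 0.342). It also passed with no filter (adjusted p = 2.93e-04) and with DESeq2 (0.0262). The knockdowns differed by -0.87 ± 0.44 (adjusted p = 0.166), a value that passed with no filter (adjusted p = 0.0158).

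Set against each other within a library, which removes scaling between libraries, Nr2f1 reads outnumbered Nr2f2 reads 91.9, 42.8 and 22.9 to 1 in scramble replicates 1, 2 and 3. The circSlc45a4 knockdown had ratios of 152, 246 and 189, the Slc45a4 mRNA knockdown ratios of 60.8, 91.1 and 96.0, with 0.5 reads added to each count. The circSlc45a4 knockdown lay above all other libraries, and the Slc45a4 mRNA knockdown overlapped scramble. On the log2 scale the means were 5.49 ± 1.00 (SD, n = 3), 7.58 ± 0.35 and 6.34 ± 0.36 in scramble, circSlc45a4 knockdown and Slc45a4 mRNA knockdown. The circSlc45a4 knockdown exceeded scramble by 2.10, or 4.28-fold, and exceeded the Slc45a4 mRNA knockdown by 1.24, or 2.37-fold. Each gave p = 0.1 in a two-sided exact permutation test, the smallest value 3 against 3 libraries allow (0.15 after adjustment over the 3 comparisons). The Slc45a4 mRNA knockdown exceeded scramble by 0.85 (exact p = 0.3). An exact permutation test over all 3 groups gave F = 7.97 and p = 0.0214 over 1680 assignments. Without circSlc45a4 knockdown replicate 2 it gave F = 4.77 and an exact p of 0.0821. Corrected for exon length, Nr2f1 exceeded Nr2f2 38.9 to 158-fold in scramble cells and 260 to 422-fold in the circSlc45a4 knockdown.

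**Figure D4:**
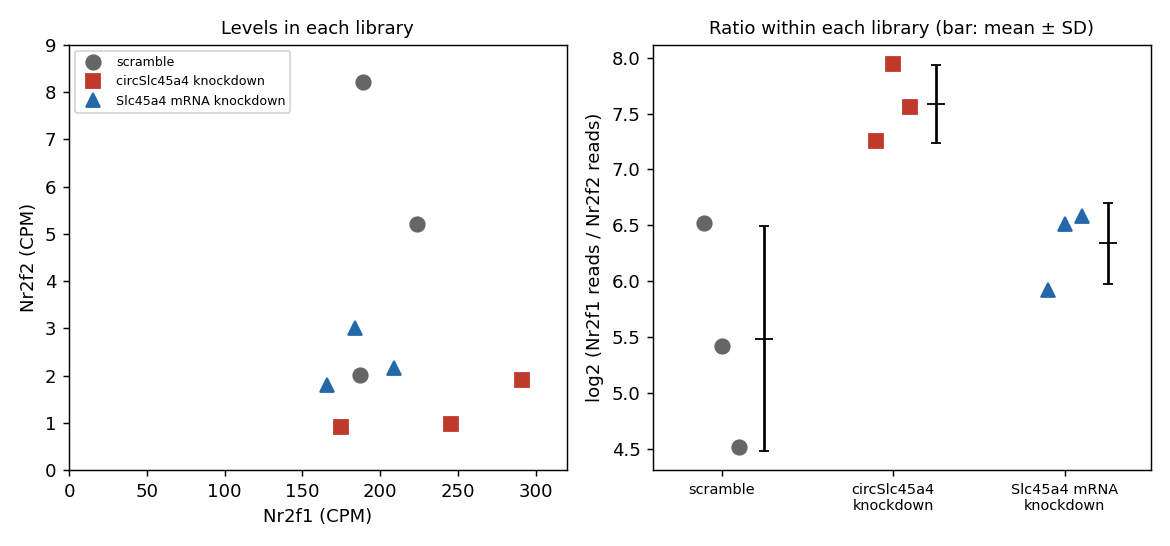
Left, Nr2f2 against Nr2f1 (both CPM) with 1 point per library; right, the log2 ratio of Nr2f1 to Nr2f2 reads in each library with the group mean and SD, on an axis that does not start at 0. The 3 circSlc45a4 knockdown libraries have the highest ratios, and the scramble libraries are spread over ratios from 22.9 to 91.9.

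Nr2f2 is also made by inhibitory neurons and by cells of vessels and of the medial edge of the cortex, so markers of those cells were summed in each library. The summed level of 10 inhibitory neuron markers was 9.37, 10.6 and 13.3 CPM in scramble replicates 1, 2 and 3. The circSlc45a4 knockdown had 5.77, 4.15 and 5.48 CPM, and the Slc45a4 mRNA knockdown 9.32, 5.61 and 5.84. In the circSlc45a4 knockdown 3 of the 8 that could be tested were lower than in scramble (Dlx1, Dlx2 and Gad2) and 0 higher. Of all genes tested, 13.0% were called lower and 14.1% higher there. None of the 10 markers was at 0 in all libraries. For 8 markers of the cortical hem and choroid plexus the sum was 0.383, 1.26 and 1.61 CPM in scramble, and the circSlc45a4 knockdown had 0.268, 0.137 and 0.0224 CPM beside 0.279, 0.620 and 0.138 for the Slc45a4 mRNA knockdown. Only 1 of these 8 had enough reads to be tested, and it was not called. The 9 endothelial markers summed to between 1.56 and 4.51 CPM in scramble and between 0.604 and 1.54 CPM in the circSlc45a4 knockdown, with 1 of 3 tested lower (Esam). The 5 pericyte markers overlapped, with 5.64, 2.01 and 3.40 CPM in scramble beside 3.89, 5.06 and 5.90 CPM in the circSlc45a4 knockdown, and 1 of 3 tested was higher (Pdgfrb). The 9 meningeal markers summed to between 1.30 and 1.77 CPM and between 0.939 and 1.04 CPM, with Foxd1 at 0 in every library. The part of these cells in the Nr2f2 difference was not tested. Over the 9 libraries the genes most like Nr2f2 by Pearson correlation of log2 CPM, among 11444 genes, were Cdyl (0.956), Pde1c (0.951), Alms1-ps1 (0.947), Prdm9 (0.937) and Cyb561a3 (0.933). For Nr2f1 they were Mcc (0.936), Kat8 (0.928), Chkb (0.925), Pkdcc (0.912) and Tsc22d4 (0.904). These values describe 9 libraries that share their groups and depths.

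Pax6, Emx2 and Lhx2 are expressed by the radial glia at the ventricle, and markers of those cells moved with the circSlc45a4 knockdown. Of 10 apical progenitor markers 7 were higher and 0 lower than in scramble (Sox2, Nes, Hes1, Slc1a3, Fabp7, Pdpn and Ttyh1), with a median log2 fold change of 0.86. Their summed level was between 817 and 1066 CPM in scramble and between 1354 and 1505 CPM in the circSlc45a4 knockdown. For the Slc45a4 mRNA knockdown it was between 898 and 1132 CPM, with 4 of 10 higher and 0 lower. Beside these counts and those below, 14.1% of all genes tested were called higher and 13.0% lower in the circSlc45a4 knockdown. In the Slc45a4 mRNA knockdown the shares of all genes were 8.92% and 9.09%. Of 8 basal progenitor markers the circSlc45a4 knockdown had 0 higher and 4 lower (Eomes, Insm1, Sstr2 and Neurog1), with sums between 1235 and 1462 CPM beside 1588 and 1743 CPM in scramble. None of these markers was at 0 in all libraries. Of 10 projection neuron markers, 2 were higher (Map2 and Slc17a7) and 2 lower (Dcx and Stmn2) in the circSlc45a4 knockdown. The 10 summed to between 6043 and 7112 CPM in scramble and between 5798 and 6039 CPM in the circSlc45a4 knockdown. For the Slc45a4 mRNA knockdown the sum was between 5192 and 5760 CPM, with 1 higher and 3 lower. The 8 markers of Cajal-Retzius cells, the earliest neurons of the cortical surface, summed to 55.1, 67.6 and 108 CPM in scramble and to 369, 217 and 122 CPM in the circSlc45a4 knockdown, where Reln and Nhlh2 were higher and Ebf3 lower of 7 tested. Their sum was between 30.2 and 59.3 CPM with knockdown of the mRNA, where 0 of 7 were called. The 8 microglia markers summed to between 2.41 and 4.11 CPM in scramble and between 6.08 and 10.8 CPM in the circSlc45a4 knockdown, with 1 of 6 tested higher (C1qa). Lhx2 was at -0.15 ± 0.11 in the circSlc45a4 knockdown against scramble. The part of these cell types in the Pax6, Emx1, Emx2 and Lhx2 values was not tested.

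The Dmrt factors, DM-domain proteins of the medial cortex, were not called in any comparison. Dmrta2 was at 33.2, 46.3 and 45.9 CPM in scramble. Its circSlc45a4 knockdown libraries had 42.2, 46.9 and 37.2 CPM, and those of the Slc45a4 mRNA knockdown 34.2, 46.7 and 45.7. The groups overlapped throughout, and the log2 fold changes were 0.01 ± 0.15 against scramble in both knockdowns (adjusted p = 0.984 and 0.974). Dmrt3 was scarce, at 1.15, 1.23 and 2.44 CPM in scramble libraries. Knockdown of circSlc45a4 gave 3.80, 2.71 and 2.06 CPM, and knockdown of the mRNA 3.18, 2.21 and 2.60 CPM. Its highest scramble library lay above the lowest library of each knockdown. The log2 fold change was 0.81 ± 0.33 (adjusted p = 0.0857) in the circSlc45a4 knockdown and 0.71 ± 0.33 (adjusted p = 0.157) in the Slc45a4 mRNA knockdown, and the knockdowns differed by 0.10 ± 0.32 (adjusted p = 0.858). Without scramble replicate 3 they were 1.26 (adjusted p = 0.0177) and 1.16 (adjusted p = 0.0371), and with no filter the first passed (adjusted p = 0.0363).

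Several members overlap a gene on the opposite strand, and the labels do not say whether the counting used strand. Nr2f2 shares 643 exon bases with B130024G19Rik, which had at most 5 reads in any library and was not tested. Nr2f1 shares 123 exon bases with A830082K12Rik, which was higher in the circSlc45a4 knockdown than in the Slc45a4 mRNA knockdown (0.84 ± 0.14, adjusted p = 0.00107), where Nr2f1 itself did not pass. Against scramble A830082K12Rik was at 0.38 ± 0.14 (adjusted p = 0.0676) in the circSlc45a4 knockdown. For the Slc45a4 mRNA knockdown it was -0.46 ± 0.15 (adjusted p = 0.0461), a call lost with replicate 1 or 2 of that group or any 1 scramble library left out (adjusted p between 0.0639 and 0.141). Emx2 shares 264 exon bases with Emx2os, which was at 2.63 ± 0.650 CPM in scramble and 4.77 ± 0.491 CPM in the circSlc45a4 knockdown. Its log2 fold change was 0.87 ± 0.25 (adjusted p = 0.0196), lost without circSlc45a4 knockdown replicate 2 (0.78, adjusted p = 0.0691) or scramble replicate 3 (0.67, adjusted p = 0.083). Pax6os1, which shares no exon bases with Pax6, was at 1.204 ± 0.42 in the same comparison (adjusted p = 0.0479), a call lost without scramble replicate 3 (0.84, adjusted p = 0.168), without scramble replicate 2 (adjusted p = 0.127) and with any 1 circSlc45a4 knockdown library left out (adjusted p between 0.0632 and 0.116). Gm27197, within the span of Lhx2, was at -0.69 ± 0.25 (adjusted p = 0.0529). The Xist covariate ended the Emx2os and Pax6os1 calls in the circSlc45a4 knockdown (adjusted p = 0.237 and 0.251). With it the A830082K12Rik call in the Slc45a4 mRNA knockdown was lost too (-0.21, adjusted p = 0.65). A 1.2-fold minimum also ended these calls (adjusted p = 0.0555, 0.0962 and 0.242). Of the 50-base stretches in its exons, Nr2f1 shares 10 with Nr2f2 (of 5090 and 8582 in all), which are the places where a read of that length could belong to either receptor.

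A list of 24 patterning signals, with edge signals among them, and a list of receptors and effectors of such signals were also examined. Several edge signals were nearly absent from these cells. Fgf8 had at most 4 reads in any library, and Fgf3, Wnt3a and Bmp4 had at most 2. Of 16 patterning signals that could be tested 6 were higher and 2 lower than in scramble, with a median log2 fold change of 0.69. Sfrp2, a secreted Wnt antagonist that is a known target of Pax6, was at 10.9 ± 0.524 CPM in scramble and 60.4 ± 15.9 CPM in the circSlc45a4 knockdown (2.47 ± 0.17, adjusted p = 8.53e-07). Its relative Sfrp1 was higher in both knockdowns, by 0.89 ± 0.08 and 0.74 ± 0.08 (adjusted p = 9.21e-06 and 8.01e-05). Wnt7b, a Wnt ligand of cortical neurons, was lower in both, at -0.73 ± 0.12 and -0.96 ± 0.12 (adjusted p = 5.63e-04 and 1.40e-04). The growth factors Nrg1 and Tgfa were higher in the circSlc45a4 knockdown, by 1.01 ± 0.12 and 1.13 ± 0.16 (adjusted p = 5.11e-05 and 1.79e-04). Knockdown of the mRNA had 2 of the 16 higher and 2 lower (median 0.17), or 25% beside 18.0% of all genes. Among them the growth factor Nrg3 was higher (0.96 ± 0.21, adjusted p = 0.00795). Fgf9, a fibroblast growth factor, was lower with knockdown of the mRNA, with 1 to 2 reads per library beside 9 to 36 in scramble (adjusted p = 0.00169, and 0.0821 with the Xist covariate). In the circSlc45a4 knockdown Nrg3 was also called higher and Fgf9 lower, with 6 to 8 Fgf9 reads per library. Of 24 receptors and effectors of these signals the circSlc45a4 knockdown had 8 higher and 0 lower, with a median of 0.07. The share called was 33.3% there and 8.33% with knockdown of the mRNA, beside 27.1% and 18.0% of all genes. The 8 included Fgfr3, a fibroblast growth factor receptor of progenitors (1.02 ± 0.16, adjusted p = 3.95e-04), Gli3, the hedgehog pathway repressor (0.74 ± 0.14, adjusted p = 0.00168), Lrp6, a Wnt coreceptor (0.63 ± 0.08, adjusted p = 1.33e-04), and Tcf7l2, a Wnt effector (1.70 ± 0.21, adjusted p = 5.95e-05). The mRNA knockdown had 2 of the 24 higher and 0 lower (median -0.02): Bmpr1b, a bone morphogenetic protein receptor (0.66 ± 0.14, adjusted p = 0.00542), and Gli1, a hedgehog target (1.16 ± 0.36, adjusted p = 0.0392). The Gli1 call was lost with the Xist covariate (0.77, adjusted p = 0.479), limma-voom (0.103), only the 6 libraries compared (0.0737) and a 1.2-fold minimum (0.0983), without replicate 1 of that group (0.59, adjusted p = 0.202), without scramble replicate 1 or 2 (adjusted p = 0.117 and 0.0919) and without circSlc45a4 knockdown replicate 1 or 2 (adjusted p = 0.0532 and 0.0606). There Smo (0.29 ± 0.10, adjusted p = 0.0654) and Gli3 (0.37 ± 0.14, adjusted p = 0.0864) did not pass, although Smo did without scramble replicate 3 (0.41, adjusted p = 0.0208) and Gli3 without replicate 2 of that group (0.51, adjusted p = 0.0166).

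Of 21 cofactors and other regional factors, knockdown of circSlc45a4 had 2 higher and 3 lower (median -0.02) and knockdown of the mRNA 2 higher and 4 lower (median -0.13). These are 23.8% and 28.6%, beside 27.1% and 18.0% of all genes in the same comparisons. Pbx3 and Meis1, homeodomain partners of other regional factors, were lower in both: Pbx3 by -1.14 ± 0.15 and -0.84 ± 0.15 (adjusted p = 1.29e-04 and 0.00194), and Meis1 by -1.51 ± 0.22 and -1.14 ± 0.22 (adjusted p = 2.80e-04 and 0.00338). Ldb2, a cofactor of LIM-homeobox proteins such as Lhx2, was higher in the Slc45a4 mRNA knockdown, in which Lhx2 was lower (0.85 ± 0.13, adjusted p = 5.89e-04), and Meis2 was lower there (-0.45 ± 0.07, adjusted p = 0.00105). Zfpm2, a partner of nuclear receptors and GATA factors, was higher in the circSlc45a4 knockdown (0.97 ± 0.30, adjusted p = 0.0263), a call lost without circSlc45a4 knockdown replicate 1 or 2 (adjusted p = 0.128 and 0.0826) or scramble replicate 1 or 3 (adjusted p = 0.0853 and 0.0678). With the Xist covariate the Zfpm2, Meis2 and, in the Slc45a4 mRNA knockdown, Pbx3 calls were lost (adjusted p = 0.43, 0.0779 and 0.0911). Of 20 genes that mark areas among postmitotic neurons, 5 rose and 2 fell with knockdown of circSlc45a4 (median 0.13), and 3 rose and 1 fell with knockdown of the mRNA (median -0.12). The shares called were 35% and 20%, beside the same 27.1% and 18.0% of all genes. Crym, an area marker, was at 0.540 ± 0.166 CPM in scramble and 3.62 ± 0.437 CPM in the circSlc45a4 knockdown (2.71 ± 0.32, adjusted p = 5.22e-05), beside 0.506 ± 0.135 CPM in the Slc45a4 mRNA knockdown. The cadherin Cdh6 was higher in both knockdowns, by 0.79 ± 0.12 and 1.02 ± 0.12 (adjusted p = 4.32e-04 and 1.22e-04). Lmo4, a LIM-only protein, was lower in the circSlc45a4 knockdown (-0.54 ± 0.10, adjusted p = 0.00148, and 0.12 with the Xist covariate), and Mdga1, an adhesion protein of upper-layer neurons, was higher (0.62 ± 0.12, adjusted p = 0.00233, and 0.0743 with the Xist covariate). With knockdown of the mRNA, Mdga1 (0.41 ± 0.12, adjusted p = 0.0335), Id2 (0.75 ± 0.17, adjusted p = 0.01) and Rora (-0.86 ± 0.26, adjusted p = 0.0352) were called, and all 3 lost their call without scramble replicate 2 (adjusted p = 0.0773, 0.0609 and 0.0708). Leaving out other libraries ended the Mdga1 call in 5 further cases and the Rora call in 3. With the Xist covariate the Mdga1, Id2 and Rora calls were all lost (adjusted p = 0.188, 0.203 and 0.302). Of 7 ventral forebrain factors that could be tested, 2 rose and 2 fell with knockdown of circSlc45a4 (median -0.45). The share called was 57.1% there and 28.6% with knockdown of the mRNA, beside 27.1% and 18.0% of all genes. With knockdown of the mRNA 2 rose and 0 fell (median -0.55), among them Olig2 (1.95 ± 0.56, adjusted p = 0.0283). That call was lost with any 1 scramble library left out (adjusted p between 0.0657 and 0.0922) or without replicate 1 or 3 of the Slc45a4 mRNA knockdown (adjusted p = 0.124 and 0.0571). It was also lost with the Xist covariate (adjusted p = 0.227). Olig2 was also higher with knockdown of circSlc45a4 (2.64 ± 0.55, adjusted p = 0.00311, and 0.113 with the Xist covariate), at 1.42 ± 0.416 CPM beside 0.222 ± 0.0282 CPM. Ebf1 was higher there (2.29 ± 0.65, adjusted p = 0.0192), a call lost with the Xist covariate (0.47, adjusted p = 0.882), without circSlc45a4 knockdown replicate 1 (1.61, adjusted p = 0.113) or scramble replicate 1 or 2 (adjusted p = 0.0593 and 0.0852). Dlx1 was lower (-1.54 ± 0.38, adjusted p = 0.00911), though not without scramble replicate 2 (-1.28, adjusted p = 0.0575). The Dlx2 call (-1.68 ± 0.56, adjusted p = 0.0419) held only without scramble replicate 1 among the 9 libraries left out in turn. It was also lost with the Xist covariate (adjusted p = 0.257). With knockdown of the mRNA Dlx1 was at -1.13 ± 0.38 (adjusted p = 0.054), and at -1.36 without scramble replicate 1 (adjusted p = 0.0331). Ebf1 was at -1.45 ± 0.73 there (adjusted p = 0.191), and at -2.72 without replicate 1 of that group (adjusted p = 0.0389).

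**Figure D5:**
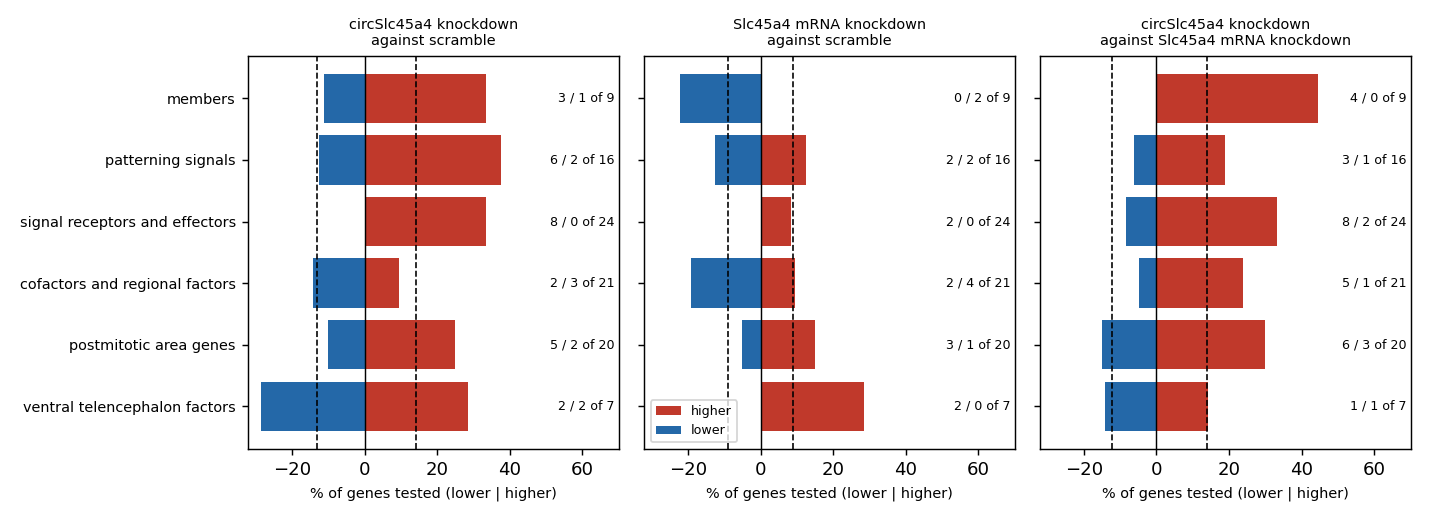
Share of the tested genes of each list called higher (right of 0) or lower (left of 0), in 3 comparisons; the dashed lines are the shares over all genes tested, and the text at the right gives the counts higher / lower of those tested. Receptors and effectors have 8 higher and 0 lower of 24 in the circSlc45a4 knockdown against scramble.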

How the data were processed

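Raw counts per gene, whole numbers and not normalized, were deposited for 53379 gene IDs in 9 libraries. The submitters' processing notes name STAR 2.4.2a, bcl2fastq 2.17.1.14, build mm10 and DESeq2, without their roles. For the counting program, annotation release and strand setting, nothing is stated in the labels. Symbols came from GENCODE M21 (53274 IDs matched).

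With edgeR 4.0.16, genes with few counts were removed (filterByExpr, minimum count 10), counts were scaled by TMM, and 1 term per group was fitted over the 9 libraries with the quasi-likelihood test. Calls are Benjamini-Hochberg adjusted p under 0.05 over 17760 genes, and SEs are the log2 fold change over the root of F. CPM are counts over the scaled library total, RPKM divide these by exon length in kilobases. Recovery of known changes was tested on simulated data. Alternatives were other scalings, filters and tools (limma 3.58.1, DESeq2 1.42.0), a replicate block, an Xist covariate, a 1.2-fold minimum and leaving out each library.

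The members and lists were chosen with earlier results of these data known. Named genes are the 9 members, Slc45a4, genes overlapping a member, the 5 most correlated genes of each Nr2f gene, and genes among the 4 smallest p-values of each list in either comparison with scramble, called or not. Some genes under this rule are not reported here. Genes named outside this rule (cell type markers, Neurod6, Tbr1, Xist, Dmrta1 and Nr2f6) were chosen after their values were seen.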

Additional observations from a re-analysis of the deposited data

How the results depend on the processing

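Of 1668 single-gene values recomputed under the alternatives, 1466 kept their direction and their side of the threshold, 131 lost a call, 45 gained one and 26 changed sign, 0 of them where the gene was called. With the Xist covariate the circSlc45a4 knockdown against scramble had 1241 genes called in place of 4814 and 1 member (4 at an unadjusted p under 0.05), and the Slc45a4 mRNA knockdown had 758 in place of 3200 and 0 members by edgeR (1, Sp8, at an unadjusted p under 0.05). Against a 1.2-fold minimum the counts were 2430, 1197 and, between the knockdowns, 2073 in place of 4632, with 1 member in the Slc45a4 mRNA knockdown. With no filter the Slc45a4 mRNA knockdown against scramble had 3864 genes and 4 members, and the knockdowns differed in 4956 genes and 7 members. DESeq2 gave 3877 genes and 4 members in the Slc45a4 mRNA knockdown.

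Leaving out each library in turn, the circSlc45a4 knockdown against scramble had 3386 to 5548 genes and 3 to 5 members, the Slc45a4 mRNA knockdown had 1760 (without scramble replicate 2) to 3083 genes and 1 (without scramble replicate 2) to 3 members, and the knockdowns differed in 3059 (without circSlc45a4 knockdown replicate 1) to 4610 genes and 4 to 6 members. The log2 ratio of Nr2f1 to Nr2f2 differed by 1.61 to 2.61, 0.37 to 1.37 and 1.04 to 1.41 in these comparisons, and F ran from 4.77 to 22.9.

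Most sign changes were in values near 0, the exception being Dmrta1 between the knockdowns, at -0.56 before any alternative. For Sp8 in the circSlc45a4 knockdown the value became 0.16 with the Xist covariate and ran from -0.159 to 0.0337 (without scramble replicate 3) with a library left out, and for Nr2f1 in the Slc45a4 mRNA knockdown it became 0.0558 with the Xist covariate. Dmrta2 in the circSlc45a4 knockdown became -0.0499 with upper-quartile scaling, -0.00770 with limma-voom, and -8.15e-05, -0.0801 and -0.134 without circSlc45a4 knockdown replicate 1 or 2 or scramble replicate 1, with 0.0884 the highest value with a library left out. In the Slc45a4 mRNA knockdown Dmrta2 became -0.00620 with limma-voom, -7.39e-04 with only the 6 libraries, -3.51e-04 and -9.13e-05 without circSlc45a4 knockdown replicate 1 or 2, -0.0695 and -0.050 without Slc45a4 mRNA knockdown replicate 2 or 3, and -0.128 without scramble replicate 1, with 0.143 the highest value with a library left out. Between the knockdowns Dmrta2 became 0.00438 with DESeq2-type size factors, 0.00459 with DESeq2, 0.0107 with the replicate block, 0.0578 with the Xist covariate, 2.70e-04 and 0.0772 without circSlc45a4 knockdown replicate 1 or 3, and 0.0791 and 0.0598 without Slc45a4 mRNA knockdown replicate 2 or 3 (lowest with a library left out -0.135). There Dmrt3 became -0.156 without circSlc45a4 knockdown replicate 1 and -0.0130 without Slc45a4 mRNA knockdown replicate 2 (highest 0.290), and Dmrta1 became 0.0790 without Slc45a4 mRNA knockdown replicate 1 (lowest -0.856). The cause was not tested.

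The replicate numbers did not pair the libraries: deviations of libraries with the same number correlated between -0.141 and 0.115, and 1 of 9 pairs was over 0.1. 1 library correlated best with its own number. A replicate block gave 4412, 2713 and 4189 genes and 4, 2 and 4 members in the 3 comparisons, with the ratio differences as before (exact permutation p = 0.25, 0.5 and 0.25). With 3 pairs of libraries, 0.25 is the smallest p that this paired permutation allows. No call of a member ended with the block, but those of Dlx2 (adjusted p = 0.0746) and Pax6os1 (0.0649) in the circSlc45a4 knockdown and of Dmrta1 (0.061), Gli1 (0.0933), Rora (0.053), Olig2 (0.0554) and A830082K12Rik (0.0705) in the Slc45a4 mRNA knockdown did, and Gm27197 in the circSlc45a4 knockdown gained a call (0.0457). Depth limits Nr2f2 and Dmrt3 most, with as few as 36 and 24 reads in a library.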

Other observations

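Relatives of the members outside the 9 were looked at after their values were seen. Dmrta1, a Dmrt gene related to Dmrta2, was at 2.30, 4.76 and 5.06 CPM in scramble replicates 1, 2 and 3, whereas the circSlc45a4 knockdown had 9.39, 6.45 and 6.44 CPM and the Slc45a4 mRNA knockdown 18.8, 5.80 and 8.28 CPM. Both knockdowns lay above all scramble libraries. Knockdown of the mRNA gave a log2 fold change of 1.41 ± 0.38 (edgeR's quasi-likelihood test, adjusted p = 0.0222), and it was called neither without replicate 1 of that group (0.78, adjusted p = 0.0936) nor without scramble replicate 1 (1.15, adjusted p = 0.0708) or 2 (1.54, adjusted p = 0.0566). With the Xist covariate it was 0.92 (adjusted p = 0.398), and the call was also lost with limma-voom (adjusted p = 0.069) and a 1.2-fold minimum (0.053). In the circSlc45a4 knockdown it was 0.86 ± 0.38 (adjusted p = 0.117). Nr2f6, the third COUP-TF family member, was at 7.78 to 8.65 CPM in scramble, 7.87 to 9.95 CPM in the circSlc45a4 knockdown and 5.86 to 8.04 CPM in the Slc45a4 mRNA knockdown, with log2 fold changes of 0.12 ± 0.16 (adjusted p = 0.605) and -0.17 ± 0.16 (adjusted p = 0.517).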
